A study of Equus caballus with 2 samples.

Results

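Krüppel-like factor (KLF) genes were examined in cultured equine endometrial fibroblasts with and without transforming growth factor beta 1 (TGF-β1). The 10 genes, KLF2, KLF3, KLF4, KLF5, KLF6, KLF7, KLF9, KLF10, KLF11 and KLF15, were chosen by symbol from 16 KLF symbols among the 21426 genes listed without a threshold on any measured value. The data were 2 single cell libraries, 1 control and 1 TGF-β1, each made from fibroblasts of 4 mares that were pooled within a treatment. The fibroblasts came from abattoir material of mares in the mid-luteal phase and were grown to passage 3 on collagen-coated hydrogels. In both groups the serum of the medium was replaced with BSA for the last 24 h. During these 24 h the control received no supplement, and the other culture received 10 ng/ml human recombinant TGF-β1. The cells were then detached with trypsin. The cells of the individual mares were not told apart here, MFGE8-treated cells were not analysed here, and no genomic positions or sequences were used.

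KLF proteins are transcription factors that bind GC-rich and CACCC elements through zinc fingers at their C-terminal end. They fall into subgroups by the partners they recruit. KLF3 binds the corepressor CtBP, KLF9, KLF10 and KLF11 bind the corepressor SIN3A, and KLF2, KLF4, KLF5, KLF6 and KLF7 are known mostly as activators, although several of them can also repress. KLF10 and KLF11 are also known as TGF-β inducible early genes. In the endometrium, KLF9 is known as a partner of the progesterone receptor.

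The control library held 4384 barcodes and 214282770 unique molecular identifiers (UMIs), each UMI standing for 1 captured transcript. The TGF-β1 library held 5124 barcodes and 224189951 UMIs. A cell was kept if it had 20000 UMIs or more, 3500 genes or more, and less than 4% of UMIs from mitochondrial genes, which left 3865 control cells (88.2%) with a median of 50313 UMIs and 4513 TGF-β1 cells (88.1%) with a median of 43142 UMIs. The libraries shared 6 barcodes, 2 of them among the kept cells. In cells thinned at random to 20000 UMIs, the stromal genes VIM, COL1A1 and COL1A2 were detected in 100% of cells of both libraries, a share that cannot show differences in amount. VIM was at 4399 CPM (UMIs of a gene per 1000000 UMIs of the library) in the control and 2240 CPM in the TGF-β1 library (log2 ratio -0.97). Some other fibroblast markers were less frequent in the TGF-β1 library, with PDGFRA in 53.9% of cells without and 25.5% with TGF-β1, and THY1 in 93.2% and 72.1%. By level, 5 of the 9 fibroblast markers were lower and 4 higher, the latter COL3A1 (log2 ratio 0.33), COL1A2 (0.26), COL1A1 (0.19) and LUM (0.03). Their sum was 21714.5 CPM in the control and 21794.8 CPM in the TGF-β1 library for all 9. EPCAM, CDH1, PECAM1, CDH5 and PTPRC, which define epithelial, endothelial and immune cells, were each in at most 0.0886% of cells. Markers less particular to a cell type were more frequent. CD68, of the immune list, was in 56.3% and 56.9%, KRT7 in 23.2% and 11.6%, and ERG in 13.9% and 26.5%. Of the smooth muscle and pericyte list, DES was in 98.03% and 98.3%, RGS5 in 61.8% and 68.2%, and MYH11 in 37.9% and 27.5%. KRT8, an epithelial keratin, was at 114 CPM in control cells and 4.48 CPM after TGF-β1. The 6 epithelial markers found summed to 134 and 12.3 CPM, nearly all of it KRT8 and KRT7, and the 7 endothelial markers to 13.4 and 24.2 CPM, mainly ERG. The part of these markers in the KLF differences was not tested. With 1 library per condition, no difference below has a replicate check, and treatment and library preparation cannot be told apart. Intervals are exact binomial 95% intervals, except for odds ratios, and all cover counting error only.

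KLF2 and KLF4 were both more than 2-fold lower in the TGF-β1 library, KLF6 and KLF5 were more than 1.5-fold lower, and KLF9 and KLF10 were moderately higher. KLF15, counted in few molecules, was lower by the largest ratio among the 10 genes. Of the 10 genes, 3 were more than 2-fold lower and 0 more than 2-fold higher. Among the 7658 genes that averaged 10 CPM or more over the libraries (abundant genes below), 2.13% were lower and 2.3% higher by that limit. Of the 7 abundant KLF genes, 2 were past it, KLF2 and KLF4. KLF5 and KLF11 averaged between 1 and 10 CPM, and KLF15, at 0.83 CPM, lay below both minimums. With a minimum of 1 CPM, 2 of 9 KLF genes were more than 2-fold lower, beside 3.46% of 12116 genes. At a 1.5-fold limit, 5 of the 10 KLF genes were lower and 0 higher. The abundant KLF genes gave 3 of 7 lower, beside 6.48% of abundant genes lower and 6.19% higher, and with the minimum of 1 CPM the count was 4 of 9, beside 9.36%. The median log2 ratio (TGF-β1 level over control level) was -0.48 for the 10 KLF genes and -0.14 for the 7 abundant ones, beside 0.0082 for abundant genes as a whole. Summed over the 10 genes, KLF UMIs came to 767 CPM without and 525 CPM with TGF-β1.

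**Figure D1:**
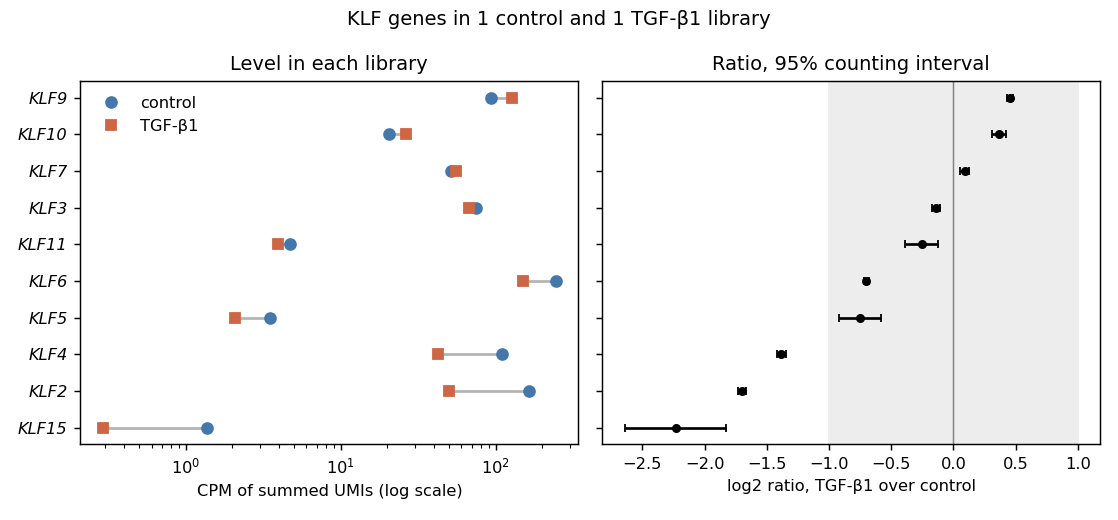
Levels of the 10 KLF genes in CPM of summed UMIs on a log axis (left; circles control, squares TGF-β1) and log2 ratios, TGF-β1 to control, with 95% counting intervals (right; grey band, changes within 2-fold), with genes ordered by ratio. KLF2, KLF4 and KLF15 lie left of the grey band, and KLF9, KLF10 and KLF7 lie right of 0.

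KLF2 is known in endothelium as a factor induced by laminar flow and as a regulator of quiescence in immune cells. Its level was 163.6 CPM in the control library, from 34427 UMIs, and 50.3 CPM in the TGF-β1 library, from 11048 UMIs. The TGF-β1 level was 3.25-fold lower, with a log2 ratio of -1.70 (interval -1.73 to -1.67). Of the abundant genes, 0.483% had a lower ratio.

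KLF4 is known as a reprogramming factor and, in vascular smooth muscle, as a repressor of contractile genes. It was measured at 110 CPM without and 42.2 CPM with TGF-β1. This level was 2.61-fold lower, with a log2 ratio of -1.38 (interval -1.42 to -1.35). KLF6, a gene induced by injury in several tissues including hepatic stellate cells, stood at 244 CPM and 150 CPM. Its log2 ratio was -0.70 (interval -0.72 to -0.68), and 4.65% of abundant genes had a lower one. KLF5, which is linked to proliferation of smooth muscle and intestinal crypt cells, was at 3.51 CPM in the control and 2.09 CPM in the TGF-β1 library (log2 ratio -0.75, interval -0.92 to -0.58). KLF7, best known in neurons, was at 51.7 CPM and 55.1 CPM, a ratio close to that of the median gene (log2 ratio 0.09, interval 0.05 to 0.13). Of the activator subgroup, KLF2, KLF4 and KLF6 were thus more than 1.5-fold lower, beside 6.48% of abundant genes. KLF5 was too, at under 10 CPM, and KLF7 was not lower. The subgroup was not tested as a set.

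KLF3, the CtBP-binding repressor, was at 74.3 CPM in the control and 67.3 CPM in the TGF-β1 library (log2 ratio -0.14, interval -0.17 to -0.11). That difference was smaller in size than the median difference of abundant genes, which was 0.195 on the log2 scale without regard to sign.

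The SIN3A-binding genes differed in direction. KLF9 was at 93.1 CPM in the control and 127 CPM in the TGF-β1 library, from 19587 and 28008 UMIs. Its log2 ratio of 0.45 (interval 0.43 to 0.48) was above that of 90.4% of abundant genes. KLF10 was at 20.6 CPM and 26.5 CPM (log2 ratio 0.37, interval 0.31 to 0.42). KLF11, the other TGF-β inducible early gene, was lower, at 4.69 CPM in the control and 3.93 CPM in the TGF-β1 library (log2 ratio -0.25, interval -0.39 to -0.12). At 24 h the 2 genes named for induction by TGF-β had ratios of opposite sign, and neither was past 1.5-fold.

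KLF15, a glucocorticoid target known for control of metabolic genes and for restraint of matrix genes in heart and kidney, was rare in these cells. It had 287 UMIs in the control and 64 UMIs in the TGF-β1 library, or 1.36 CPM and 0.291 CPM. The TGF-β1 level was 4.68-fold lower, with the widest interval of the 10 genes (log2 ratio -2.23, interval -2.64 to -1.83).

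For KLF2 and KLF4, fewer cells had a UMI in the TGF-β1 library, and the cells that had any held fewer. A lower mean alone lowers both values, so they are not separate sources of the lower totals. The libraries differed in depth, so shares were taken after each cell was thinned to 20000 UMIs. KLF2 was detected in 76.7% of cells in the control (interval 75.3 to 78.0) and in 48.1% after TGF-β1 (46.6 to 49.6). In the cells with a UMI, the mean was 4.28 UMIs in the control and 2.12 in the TGF-β1 library. Cells with 5 or more KLF2 UMIs made up 26.5% of the control and 3.99% of the TGF-β1 library. Without thinning the KLF2 shares were 88.8% and 66.8%.

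KLF4 was detected in 82.5% of thinned cells in the control (81.2 to 83.6) and in 53.0% after TGF-β1 (51.5 to 54.4), with 2.71 and 1.59 UMIs per cell with a UMI. Without thinning the KLF4 shares were 95.9% and 76.5%. KLF6 was detected in 94.1% (93.3 to 94.8) and 87.9% (86.9 to 88.8) of thinned cells. Its mean in cells with a UMI was 5.03 in the control and 3.30 in the TGF-β1 library, and cells with 5 or more KLF6 UMIs made up 46.4% and 21.3%. Cells without a KLF6 UMI made up 5.90% and 12.1%, so that for KLF6, too, cells without a UMI were more frequent in the TGF-β1 library.

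**Figure D2:**
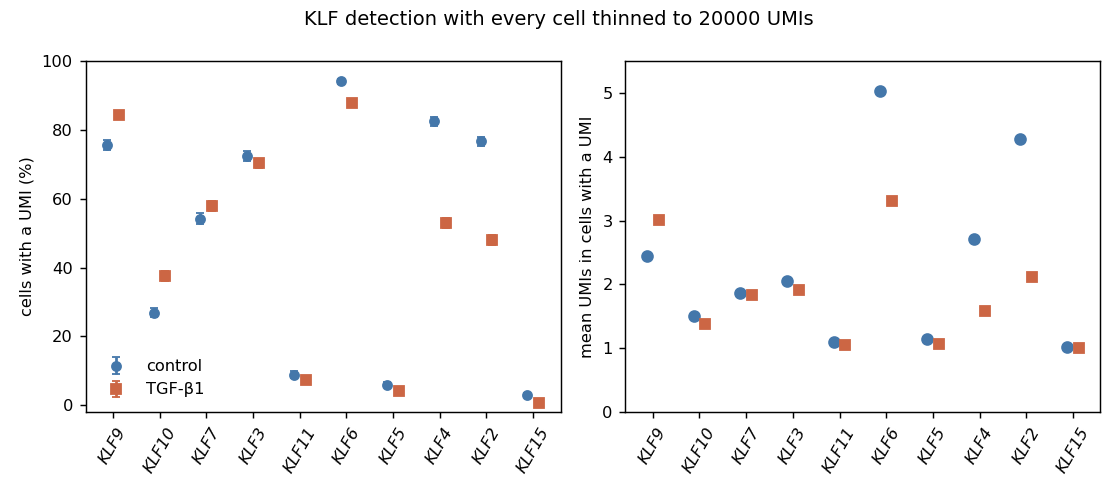
Percentage of cells with a UMI of each KLF gene (left, bars are exact binomial 95% intervals) and mean UMIs in those cells (right), with each cell thinned to 20000 UMIs. KLF2 and KLF4 are near 50% in the TGF-β1 library and above 75% in the control, and KLF6 stays above 85% in both.

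Among the genes with a higher level, KLF9 was detected in 75.6% of thinned cells in the control and in 84.2% after TGF-β1, with 2.45 and 3.01 UMIs per cell with a UMI. KLF10 was detected in 26.9% (25.5 to 28.3) and 37.5% (36.1 to 39.0). The mean in KLF10-positive cells was not higher in the TGF-β1 library (1.5 UMIs in the control and 1.39 in the TGF-β1 library). Cells with 2 or more KLF10 UMIs made up 9.34% and 10.9%, while those with 5 or more were 0.181% and 0.0886%. KLF10 was therefore spread over more cells in the TGF-β1 library, at no higher amount per positive cell, with a ratio of variance to mean of 1.53 in the control and 1.21 in the TGF-β1 library.

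The remaining genes gave smaller gaps in detection. KLF3 was in 72.3% and 70.2% of thinned cells of the control and TGF-β1 library, KLF7 in 54.2% and 57.7%, KLF11 in 8.90% and 7.27%, and KLF5 in 5.90% and 3.97%. KLF15 was in 114 control cells (2.95%) and 29 TGF-β1 cells (0.643%). With another random draw of the thinning, the KLF11 shares were 7.74% and 7.45%, and the KLF3 shares 70.6% and 69.6%, so the gaps for KLF11 and KLF3 were not steady at this depth. Free RNA in the droplets was not measurable, since the libraries held no other cell type that should lack these genes. The low shares of KLF5, KLF11 and KLF15 have no such background beside them.

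**Figure D3:**
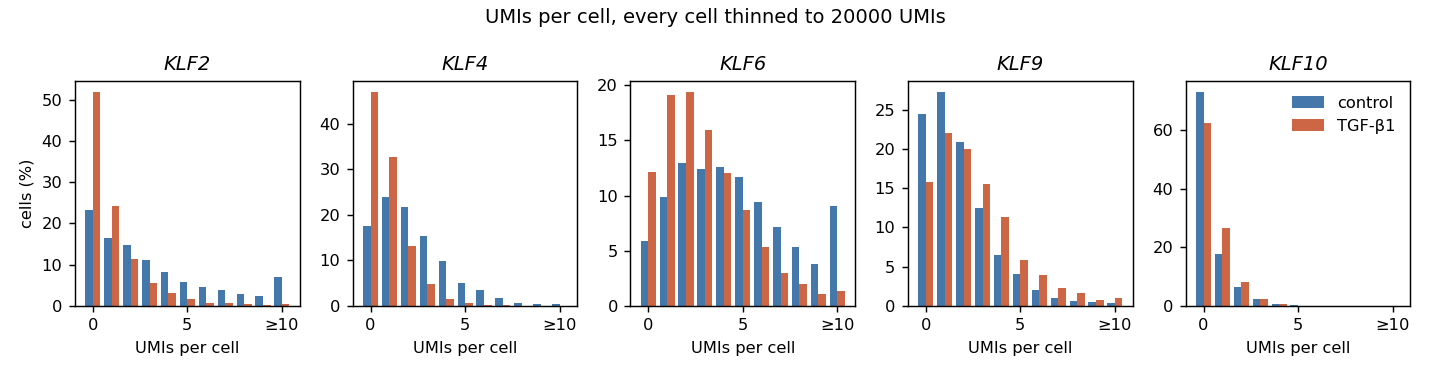
Percentage of cells (vertical axes, scaled per gene) by number of UMIs per cell (horizontal axes, the last bar is 10 or more) for KLF2, KLF4, KLF6, KLF9 and KLF10 after thinning to 20000 UMIs. Control cells of KLF2 form a long tail, with 6.96% of cells at 10 or more UMIs against 0.332% in the TGF-β1 library.

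KLF2 had the highest ratio of variance to mean over cells among the 10 genes, a measure that is not scaled for level. This ratio was 3.98 in the control and 2.52 in the TGF-β1 library, at means of 3.29 and 1.02 UMIs. For KLF4 it was 1.61 and 1.29, and for KLF6 2.37 and 1.81. For abundant genes the median ratio was 1.15 in the control and 1.14 in the TGF-β1 library, and the 90th percentile was 2.04 and 1.86. A Poisson distribution with the mean of control KLF2 would leave 3.74% of cells without a UMI, whereas 23.3% had none. In the TGF-β1 library the corresponding values were 36.1% and 51.9%. For KLF4 the Poisson share was 10.7% in the control and 43.1% in the TGF-β1 library, beside 17.5% and 47.0% observed. Most of the rise in cells without a KLF4 UMI is thus what the lower mean alone would give. KLF2 exceeded the 90th percentile of variance to mean in both libraries, KLF6 did so in the control, and KLF9 narrowly did so in the TGF-β1 library, at 1.87. Variance to mean tends to rise with the mean, and this percentile was not matched for level. By mean level KLF6 ranked 739, KLF9 1412 and KLF2 1473 among the 7658 abundant genes. The part of level in these values was not tested.

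Counted jointly, a control cell held a mean of 5.00 of the 10 KLF genes after thinning, and a TGF-β1 cell held 4.51. The median was 5 in both libraries. No control cell lacked all 10 genes, which allows a share of up to 0.0776%, while 6 TGF-β1 cells did (0.133%). Cells with 7 or more of the genes made up 10.6% of the control and 6.18% of the TGF-β1 library.

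KLF2 and KLF4 were detected together in 64.5% of cells (63.0 to 66.0) in the control and 27.7% (26.4 to 29.0) after TGF-β1. Cells with neither gene made up 5.33% (4.64 to 6.09) and 26.6% (25.3 to 27.9). KLF2 without KLF4 was seen in 12.2% and 20.5%, and KLF4 without KLF2 in 18.0% and 25.3%. KLF2, KLF4 and KLF6 were all present in 61.4% and 25.02%, and all absent in 0.492% and 4.17%. Joint detection depends on the share of each gene, so the pairs were also set against the product of their shares.

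Of 45 pairs, 28 had both genes in at least 5% of thinned cells of both libraries, and their median ratio of observed to expected joint detection was 1.01 in the control and 1.02 in the TGF-β1 library. That ratio cannot move far from 1 for widely detected genes, so the odds ratio is also given. Its interval lay above 1 for 15 control and 10 TGF-β1 pairs and below 1 for 0 pairs in either. Intervals were not adjusted for the number of pairs. Pairs of other genes were not counted, so these counts cannot show whether the KLF genes differ from other genes. KLF2 and KLF4 were found together in 64.5% of control cells where the product was 63.3%, with an odds ratio of 1.57 (interval 1.30 to 1.88). In the TGF-β1 library they were together in 27.7% where the product was 25.5%, with an odds ratio of 1.42 (1.26 to 1.60).

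By the log2 ratio of observed to expected joint detection, averaged over the libraries, the 3 highest pairs held KLF11, a gene of low detection for which the ratio has more room. KLF10 and KLF11 were both detected in 128 control cells, 3.31% where the product was 2.39%, with an odds ratio of 1.70 (1.35 to 2.14). In the TGF-β1 library the same pair was in 120 cells, 2.66% where the product was 2.73%, and the odds ratio was 0.957 (0.758 to 1.21). Without thinning, the log2 ratio of observed to expected for KLF10 and KLF11 was 0.29 in the control and 0.17 in the TGF-β1 library, both above 0, so the contrast between the libraries rests on the thinned counts. KLF7 and KLF11 had odds ratios of 1.32 in the control and 1.27 in the TGF-β1 library, and KLF9 and KLF11 had 1.37 and 1.57. At the other end, KLF2 and KLF9 had odds ratios of 0.840 (0.703 to 1.00) and 0.858 (0.731 to 1.01). KLF3 and KLF4 had 0.995 and 0.916, and KLF2 and KLF3 had 0.890 and 1.01, all with intervals that include 1.

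Correlations over cells, of log1p UMIs after thinning, ordered the pairs differently, and no KLF11 pair was among the highest. All cells of a library share its preparation, and these values are descriptions over 3865 control and 4513 TGF-β1 cells. The median Pearson r of the 28 pairs was 0.040 in the control and 0.030 in the TGF-β1 library. KLF2 and KLF6 had r of 0.21 and 0.13, KLF2 and KLF4 had 0.15 and 0.14, and KLF4 and KLF6 had 0.14 and 0.07. KLF9 went with other genes, at 0.13 and 0.14 with KLF3, 0.10 and 0.12 with KLF7 and 0.13 and 0.09 with KLF10. KLF2 and KLF9, which had the lowest and the highest TGF-β1 ratio among the abundant KLF genes, had r of -0.09 and -0.08.

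**Figure D4:**
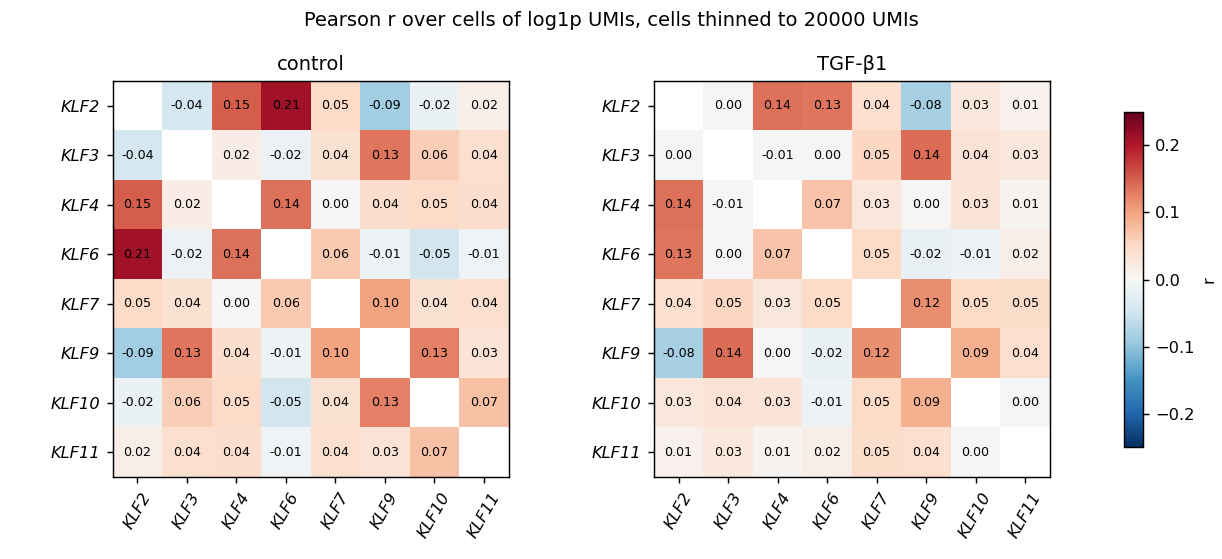
Pearson r over cells for each pair of 8 KLF genes in the control (left) and the TGF-β1 library (right), from log1p UMIs of cells thinned to 20000 UMIs, with the colour scale running from blue (negative) to red (positive). KLF2, KLF4 and KLF6 form positive pairs with each other, KLF9 forms them with KLF3, KLF7 and KLF10, and KLF2 with KLF9 is the lowest pair in both libraries.

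For KLF2, KLF4 and KLF6, the genes most like them over cells were taken by the smaller of the r values of the 2 libraries, among abundant genes. For KLF2 these included ANXA1, an annexin, at 0.17 and KLF4 at 0.14. KLF4 had KLF2 at 0.14, ANXA1 at 0.12 and RFX3 at 0.11. KLF6 had ATF3 at 0.22, JUN at 0.22 and RFX2 at 0.16, of which ATF3 and JUN are stress-induced transcription factors of the bZIP class. ANXA1 was lower in the TGF-β1 library, with a log2 ratio of -0.38. Named after its values were seen, GLIS3, a zinc finger factor, reached 0.28 with KLF9 by the same measure, above the genes named for KLF2, KLF4 and KLF6, and had a log2 ratio of 0.59.

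The direction of the KLF2, KLF4, KLF6 and KLF9 differences was the same in each of 8 clusters rebuilt without the KLF genes among the variable genes. The clusters held 73 to 1090 cells per library. KLF2 was more than 2-fold lower in 8 of 8 clusters, with log2 ratios from -1.87 to -1.13. KLF4 was likewise more than 2-fold lower in 8 of 8, from -1.59 to -1.11. KLF6 was lower in 8 of 8 within a narrow range, from -0.75 to -0.64, and never past 2-fold. KLF9 was higher in 8 of 8, from 0.10 to 0.58, and its interval included 0 in cluster 5 alone.

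The smallest KLF2 and KLF4 differences were both in cluster 7, led by CA4, CDKN1A and MDM2 among others, with 120 control and 73 TGF-β1 cells. There KLF2 was at 128 CPM in the control and 58.5 CPM in the TGF-β1 library (log2 ratio -1.13, interval -1.36 to -0.92). In cluster 3, led by AREG, KRT8 and MT-CO3, both genes had their highest levels in either library. KLF2 was at 202 CPM and 64.3 CPM in cluster 3, and KLF4 at 126 CPM and 51.5 CPM. KLF2 in the control ranged from 121 CPM, in cluster 6, to 202 CPM over the clusters, and in the TGF-β1 library from 39.2 to 64.3 CPM. KLF4 ranged from 83.2 to 126 CPM and from 33.0 to 51.5 CPM, and KLF6 from 184 to 305 CPM and from 112 to 182 CPM.

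KLF9 and KLF10, like most of the KLF genes, had their lowest ratio in cluster 5, whose leading genes included CRABP2, CFD and SOD3. KLF3, KLF6, KLF7, KLF9 and KLF11 had their lowest levels there in both libraries. Cluster 5 also had the lowest median depth, 41236 UMIs in control and 33743.5 in TGF-β1 cells, and the part of depth was not tested. KLF9 was at 40.8 CPM in the control and 43.8 CPM in the TGF-β1 library. It was next lowest in cluster 0, also led by CRABP2 and CFD among others, at 58.7 and 88.0 CPM. In cluster 4, where it was highest, it was at 118 and 164 CPM. KLF10 was higher in 7 of 8 clusters, up to a log2 ratio of 0.62, and had a ratio of -0.30 in cluster 5 with an interval that included 0 (-0.67 to 0.07). KLF3 was lower in 8 of 8 clusters, from -0.51 to -0.03, with the lowest value again in cluster 5 and an interval below 0 in 5 of 8. KLF5 was lower in 8 of 8 and past 2-fold in 3, from counts as low as 6 UMIs in cluster 5, with an interval below 0 in 6 of 8. KLF7 was higher in 5, each with an interval above 0, and lower in 3, where the intervals included 0. KLF11 was higher in 2 and lower in 6, with an interval below 0 in 2. KLF15 gave a ratio in 4 clusters, all lower, from -2.70 to -1.82, and had 3 UMIs or fewer in the TGF-β1 cells of the other 4.

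**Figure D5:**
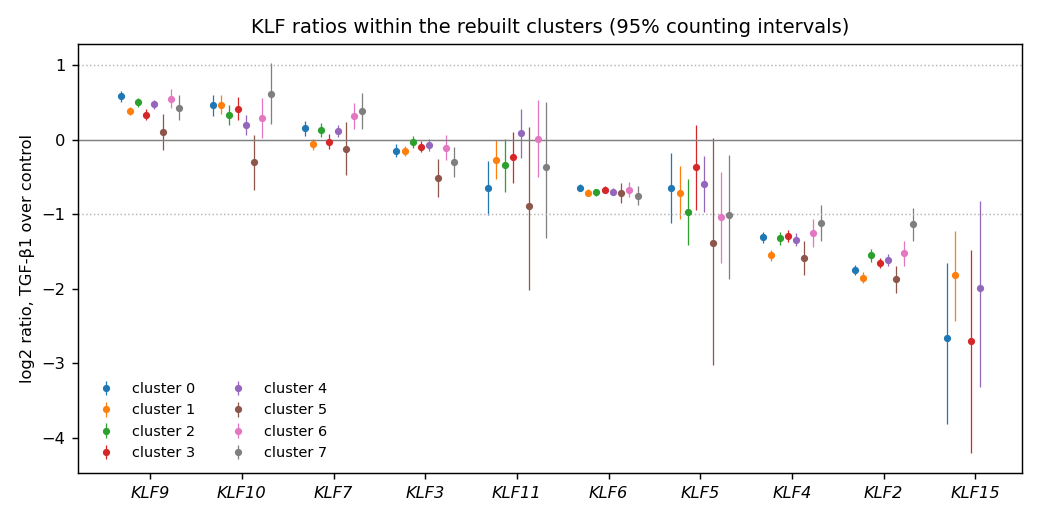
Log2 ratio, TGF-β1 to control, for each KLF gene in each of the 8 rebuilt clusters (points) with 95% counting intervals, with dotted lines at 2-fold. All KLF2 and KLF4 points lie below the lower dotted line, all KLF6 points lie between it and 0, and all KLF9 points lie above 0.

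Several KLF genes are known for links to the cell cycle, so cells with 3 or more of 9 cycling markers after thinning were compared with the other cells of the same library. There were 81 such cells in the control and 80 in the TGF-β1 library. KLF2 was lower in cycling cells, at 110 CPM against 165 CPM in the other control cells and 39.3 against 50.6 CPM in the TGF-β1 library. KLF4 had the same direction, at 79.2 against 111 CPM and 34.7 against 42.4 CPM. KLF5 had the opposite direction, at 6.88 against 3.41 CPM in the control (log2 ratio 1.01, interval 0.52 to 1.47) and 4.40 against 2.03 CPM in the TGF-β1 library (1.12, interval 0.48 to 1.70). KLF11 had a log2 ratio of 0.91 in the TGF-β1 library (0.42 to 1.36) and 0.38 in the control, where the interval included 0 (-0.14 to 0.86). KLF6 was alike in cycling and other cells, with log2 ratios of -0.01 and 0.04. The intervals treat UMIs as independent, although the UMIs of a cell share that cell.

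The other KLF and SP genes bind the same kind of element. Of 17 symbols listed, 15 were found and 3 had at least 10 CPM, with 0 past 1.5-fold. KLF12, a CtBP-binding repressor like KLF3, was at 307 CPM in the control and 274 CPM in the TGF-β1 library (log2 ratio -0.16). KLF13 and SP3 had log2 ratios of -0.01 (interval -0.08 to 0.05) and -0.0016 (-0.04 to 0.03), both with 0 inside the interval. KLF17 had 0 UMIs in both libraries, which allows up to 0.0143 CPM in the control and 0.0137 CPM in the TGF-β1 library. Below 10 CPM, and named after their values were seen, SP1 had a log2 ratio of -0.42 and SP4 one of 0.47, while SP5 and SP7, each under 1 CPM in both libraries, had ratios of 0.90 (interval 0.40 to 1.41) and -1.18 (-2.11 to -0.32). SP8, with 3 and 13 UMIs, had a ratio of 2.05 (0.19 to 4.51).

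Of the corepressors, coactivators and ubiquitin ligases that KLF proteins are known to engage, 17 of 17 genes had at least 10 CPM. In the TGF-β1 library 12 were higher and 5 lower, with 0 past 1.5-fold and a median log2 ratio of 0.11. Among abundant genes, 6.19% were more than 1.5-fold higher and 6.48% lower, so few past that limit would be found in a list of this size. SMURF1, a ubiquitin ligase, was at 0.48, KAT2B, an acetyltransferase, at -0.40 and HDAC3, a deacetylase, at -0.36. In the ERK5 and MEF2 axis, which is known to induce KLF2 and KLF4 in endothelium, 4 of 7 genes had at least 10 CPM, 2 higher and 2 lower and 0 past 1.5-fold. Their median log2 ratio was -0.0066, with MEF2D at 0.22, MAP2K5 at -0.13 and MEF2A at -0.03. Below 10 CPM, and named after its values were seen, MAP3K3 had a log2 ratio of 0.73 (interval 0.62 to 0.84), and the median over all 7 genes was 0.11.

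Genes known to respond to glucocorticoid or to act beside it, the setting in which KLF9 and KLF15 are often studied, were mostly lower. Of 12 genes found, 11 had at least 10 CPM, of which 9 were lower and 2 higher, with a median log2 ratio of -0.48. Abundant genes as a whole had a median of 0.0082, and 2.13% of them were more than 2-fold lower. CEBPD, a bZIP factor also induced in the acute phase, was at 1317 CPM in the control and 527 CPM in the TGF-β1 library (log2 ratio -1.32) and was the only one of the 11 past 2-fold. PGR, the progesterone receptor, was at -0.76, and NR3C2, the mineralocorticoid receptor, at 0.70. KLF15 had the direction of most of this list, and KLF9 did not.

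Immediate early and stress genes were mostly lower beside KLF2, KLF4 and KLF6. Immediate early genes respond within minutes to serum, stress or cell detachment. Of 20 genes found, 19 had at least 10 CPM, with 17 lower and 2 higher, 6 past 2-fold lower and 0 past 2-fold higher, and a median log2 ratio of -0.83. Among abundant genes as a whole, 2.13% were more than 2-fold lower and 2.3% higher, with a median of 0.0082. Named after their values were seen, the 2 higher genes were IER3 at 0.48 and HSPA8 at 0.06. FOS was at 194 CPM in the control and 64.3 CPM in the TGF-β1 library (log2 ratio -1.59). EGR1 was at 175 CPM and 70.9 CPM (-1.30), and BTG2 had a log2 ratio of -1.46. Summed over the list, the level was 3027 CPM in the control and 2337 CPM in the TGF-β1 library. IER3 took 632 CPM of the first sum and 879 CPM of the second. Over cells, r with the summed list was 0.15 for KLF6, 0.13 for KLF4 and 0.11 for KLF2 in the control, and 0.06, 0.01 and 0.01 in the TGF-β1 library. Some single genes of the list were among the 10 genes most like a KLF gene, and were named after their values were seen. In the TGF-β1 library r was 0.13 for KLF2 with JUN, 0.10 for KLF4 with FOS and 0.22 for KLF6 with JUN. The low values with the sum thus did not hold for each gene, and values for the rest of the list are not given. With the summed list, KLF9 and KLF10, which were higher in the TGF-β1 library, had like values of 0.11 and 0.11 in the control and 0.07 and 0.07 in the TGF-β1 library.

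KLF ratios in cells with 0 UMIs of both FOS and EGR1 after thinning were computed as well, a choice made after the data were seen. FOS and EGR1 themselves differed between the libraries, so this selection took unlike shares of them. Such cells numbered 114 in the control (2.95%) and 763 in the TGF-β1 library (16.9%). Among them KLF2 was at 120 CPM in the control and 42.3 CPM in the TGF-β1 library (log2 ratio -1.504, interval -1.63 to -1.37). KLF4 was at 75.6 and 37.2 CPM (-1.02, interval -1.18 to -0.86), and KLF6 at 177 and 130 CPM (-0.45, interval -0.55 to -0.35). KLF9 and KLF10 had log2 ratios of 0.86 (0.71 to 1.02) and 0.71 (0.40 to 1.04). The part of the immediate early genes in the KLF differences was not tested.

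Smooth muscle genes, which KLF4 is known to repress and KLF5 to bind, were mostly higher. Of 12 genes with at least 10 CPM, 10 were higher and 2 lower, 3 past 2-fold higher, with a median log2 ratio of 0.53. For this list and the next, the background is all abundant genes, of which 2.3% were more than 2-fold higher and 2.13% lower. Their median was 0.0082. ACTG2, a smooth muscle actin, was at 349 CPM in the control and 965 CPM in the TGF-β1 library (1.47). TPM1 was at 1.26 and CNN1 at 1.23. Named after their values were seen, the 2 lower genes were MYH11, a smooth muscle myosin, at -0.76 (interval -0.81 to -0.71) and MYL9 at -0.02 (-0.03 to -0.01). Among TGF-β receptor and SMAD genes, 10 of 14 found had at least 10 CPM, 5 higher and 5 lower, with a median log2 ratio of 0.02. SMAD7, an inhibitory SMAD that KLF10 is known to repress, was at 29.5 CPM in the control and 61.0 CPM in the TGF-β1 library (1.05) and was the only one of the 10 past 2-fold. Below 10 CPM, and named after their values were seen, TGFBR3 had a log2 ratio of -2.06 and TGFB3 one of 1.07. SKIL, another feedback inhibitor, was at 0.72 and TGFBR1, the type I receptor, at 0.71. SMAD7 and KLF10 were thus both higher in the TGF-β1 library.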

How the data were processed

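For each library, the authors deposited UMI counts per gene and barcode, made with Cell Ranger against EquCab3.0 with the Ensembl annotation. The submitters' processing notes name Cell Ranger 7.1.0, whereas the file headers name 8.0.1. These deposited counts were whole numbers without normalization, and the study's cell filters had not been applied to them. Doublets and mares, which the study called from the reads, were not called here.

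UMIs of kept cells were summed per library or cluster and scaled to CPM in Python 3.11.15 (numpy 2.4.6, scipy 1.17.1, pandas 2.3.3), with figures in matplotlib 3.10.9. Ratios had no pseudocount and were left out where both libraries, or either library within a cluster, had 3 UMIs or fewer. Their intervals, and those of shares, were Clopper-Pearson intervals at 95%, and those of odds ratios were Woolf intervals on the log scale. The upper limit for 0 cells is 3 cells of the total. Clusters were rebuilt in Seurat 5.3.0 (SeuratObject 5.2.0, R 4.3.3) from 2000 variable genes without the KLF genes, 30 dimensions, canonical correlation integration and resolution 0.5, and were called by number and leading genes. All genes were scaled alike, and scripts were tested on simulated data.

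The KLF genes and all gene lists were chosen with earlier results of these data known. Named in the text were all 10 KLF genes, the 3 genes of each list with the largest ratio in size and at least 10 CPM, the 3 genes most like each of the 3 abundant KLF genes with the largest ratios, and the 3 highest and 3 lowest pairs. Of the genes most like KLF2, 1 is not reported here. Marker genes were named where they bore on a result, and leading genes describe clusters. The symbols KLF14, KLF18, MT2A, JUND, ZFP36 and TGFB2 were not found. Alternatives were other cell filters, scalings, fold limits, thinnings and clusterings, with 1 added after the data were seen.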

Additional observations from a re-analysis of the deposited data

Results flagged for a closer look

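KLF9 was also present in the barcodes outside the kept cells, which entered only the alternative cell filters and the values under other observations. In these 611 TGF-β1 barcodes, whose medians were 6107 UMIs and 10.2% mitochondrial UMIs, KLF9 was at 279 CPM from 1243 UMIs, above the 196 CPM from 742 UMIs in the 519 control barcodes, whose medians were 3728 UMIs and 3.23%. The log2 ratio was 0.51 (interval 0.38 to 0.64). In kept cells the levels were 127 and 93.1 CPM. The part of depth and mitochondrial share in this difference was not tested.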

How the results depend on the processing

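The number of KLF genes past 2-fold was 3 under each of 11 alternative sets of cells or scales, and 5 at a 1.5-fold limit. The median log2 ratio of the KLF genes was -0.14 with a 10 CPM minimum, because KLF5, KLF11 and KLF15 drop out, and -0.22 in cells with 0 UMIs of FOS and EGR1, an alternative added after the data were seen, where the cause was not tested. Of 110 single ratios under alternatives, 102 stayed within their counting interval and 8 moved, all 8 in the cells without FOS and EGR1 UMIs. There KLF3 (0.01) and KLF11 (0.71) took the other sign, with intervals that included 0. The wider cell filters could move little, since kept cells already held 210497250 of the 214282770 control UMIs. A median-of-ratios scale shifted every log2 ratio by -0.0082. Co-detection ratios stayed within their intervals in 180 of 180 values, although that of KLF10 and KLF11 in the TGF-β1 library went from -0.04 to 0.17 on the log2 scale without thinning. This count is a weak check, because these intervals are wide for rare pairs. The other alternative left out only 81 control and 80 TGF-β1 cycling cells. Of 60 shares, 42 moved, mostly without thinning or with 2 UMIs required. Without thinning the KLF7 share was 80.2% in the control and 79.7% in the TGF-β1 library, the opposite order. Without integration, only 1 cluster held at least 50 cells of each library, with KLF2 at -1.44. With a 1 CPM minimum 837 genes were past 2-fold instead of 339. No paired analysis was possible because the cells of the 4 mares, pooled in both libraries, were not told apart here, which left 1 library per condition and no replicate to leave out. Depth limits KLF15, KLF11 and KLF5 most, and mare-to-mare spread is in none of the intervals.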

Other observations

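The barcodes outside the kept cells gave values for the other abundant KLF genes as well. KLF2 was at 118 CPM in the control and 35.0 CPM in the TGF-β1 library (log2 ratio -1.75, interval -2.02 to -1.49), and KLF4 at 122 and 55.2 CPM (-1.14, interval -1.37 to -0.92). KLF6 had a log2 ratio of -0.84 and KLF10 one of 0.27 (interval -0.23 to 0.77). KLF3 was at 108 and 123 CPM (0.18, interval -0.01 to 0.37) and KLF7 at 100.4 CPM in the control and 76.3 CPM in the TGF-β1 library (-0.40, interval -0.61 to -0.18), both opposite in sign to kept cells.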
